A study of Mus musculus with 6 samples.

Results

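The 10 genes studied here mark resident macrophages or monocytes, and were followed in the RNA of sorted neural crest cells (NCCs). They are Mrc1, F13a1, Lyve1, Timd4, Cd163, Folr2 and Maf on the resident, yolk-sac-like side, Ccr2 and Ly6c2 on the monocyte side, and Cx3cr1, which both kinds of cell can carry and which was kept apart. They were found by their Ensembl identifiers through GENCODE M21, and all 10 are among the 46983 genes counted. The study sorted GFP+ cells from E11.25 mouse embryos. The 3 control embryos were Wnt1Cre/+, BAF155 flox/+, BAF170 flox/+ and Rosa26 mTmG/+. The 3 BAF155/170-deficient embryos were Wnt1Cre/+, BAF155 flox/flox, BAF170 flox/flox and Rosa26 mTmG/+. Both groups thus carry Cre, the reporter and at least 1 floxed allele of each gene, and no sample is wild type for BAF155 and BAF170. Wnt1-Cre is active in the neural crest and in the dorsal neural tube, and it is not a driver of blood or macrophage lineages. The question was which of the 2 macrophage programs the immune RNA in these libraries resembles, and whether it differs between the groups.

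The first macrophages of the mouse embryo arise in the yolk sac and seed the tissues before definitive blood formation. Tissue-resident macrophages of embryonic origin often carry scavenger and uptake receptors such as the mannose receptor Mrc1 (CD206), the haptoglobin-haemoglobin receptor Cd163, the folate receptor Folr2 and the phosphatidylserine receptor Timd4. Monocytes of later haematopoiesis carry the chemokine receptor Ccr2, which guides them to Ccl2 and Ccl7, and the surface antigen Ly6C, and lose both as they mature in tissue. None of these genes is restricted to 1 origin, since monocyte-derived cells can take on resident markers.

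Library totals ran from 8191219 to 19808620 counts, with 8191219 to 11661941 in the controls and 12633319 to 19808620 in the deficient libraries. Levels are given as CPM (counts scaled to a common library size) on TMM-normalised library sizes, and per kilobase of exon wherever different genes are set side by side. The 14 neural crest markers checked had at least 1 count but were low, with a summed level of 18.2 to 33.5 CPM per kilobase in the controls and 12.5 to 16.1 in the deficient libraries. The 20 genes listed as pan-macrophage include the protease gene Ctss, the lysozyme gene Lyz2 and the complement gene C1qb. They summed to 11302 to 13104 CPM per kilobase in the controls and 13222 to 14394 in the deficient libraries. Whether other blood cells add to this sum was not tested. Of the targeted genes, Smarcc1 (BAF155) fell by 0.71 on the log2 scale (adjusted p = 0.0676, edgeR) and Smarcc2 (BAF170) had a log2 fold change of −0.11 (adjusted p = 0.251, edgeR). Gene counts do not separate the floxed exons from the rest. In these bulk samples, fewer cells of a type and less RNA per cell cannot be told apart.

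The sequences below are shown because they bear on how far the counts can be read. Ly6c2 has a neighbour, Ly6c1, which endothelial cells also use and whose coding sequence has the same 396 bases with 9 differences. The first 120 coding bases of both (GENCODE M21, the strand of the gene), with the differing bases in capitals, are:
Ly6c1: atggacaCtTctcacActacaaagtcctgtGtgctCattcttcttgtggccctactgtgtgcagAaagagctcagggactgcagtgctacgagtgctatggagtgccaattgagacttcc
Ly6c2: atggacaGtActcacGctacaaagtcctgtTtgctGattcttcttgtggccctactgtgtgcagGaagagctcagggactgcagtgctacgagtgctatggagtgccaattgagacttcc
Of all 50-base windows in the annotated Ly6c2 transcripts, 13.9% also occur in Ly6c1, so part of the reads could have been assigned to either or dropped. Ly6c1 had 5, 7 and 20 counts in the control libraries and 6, 25 and 29 in the deficient libraries, fewer than Ly6c2 in each. For Ccr2, 1.91% of windows also occur in other genes. Mrc1, Folr2, Timd4 and Lyve1 share no such window with another gene, and the remaining 4 markers share at most 0.269%.

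RefSeq promoter windows of 300 bases (GRCm38.p6) were on hand for 8 of the 10 markers. They were searched on both strands for GAGGAA, the core letters bound by PU.1, the macrophage factor encoded by Spi1. Mrc1, with 3 matches, and Timd4, with none, are shown because they stand far apart in level among the resident markers. Capitals mark the matches, here as TTCCTC on the strand printed.
Mrc1, chr2:14229164-14229463, plus strand: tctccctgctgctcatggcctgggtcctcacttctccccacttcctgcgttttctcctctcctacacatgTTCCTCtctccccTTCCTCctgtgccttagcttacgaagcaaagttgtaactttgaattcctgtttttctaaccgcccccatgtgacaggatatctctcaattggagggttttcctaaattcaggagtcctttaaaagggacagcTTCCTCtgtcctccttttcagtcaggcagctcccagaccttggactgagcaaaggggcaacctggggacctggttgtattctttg
Timd4, chr11:46810549-46810848, plus strand: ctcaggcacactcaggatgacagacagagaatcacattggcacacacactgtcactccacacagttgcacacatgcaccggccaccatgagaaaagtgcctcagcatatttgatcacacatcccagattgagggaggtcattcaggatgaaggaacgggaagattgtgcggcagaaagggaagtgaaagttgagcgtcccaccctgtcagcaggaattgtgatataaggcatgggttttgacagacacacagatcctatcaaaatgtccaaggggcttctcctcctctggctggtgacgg
F13a1 and Ly6c2 also held the motif, and Cd163, Folr2, Cx3cr1 and Ccr2 did not. The pair shown does not stand for the rest. Folr2, the highest marker at 176 CPM per kilobase, had no match, while F13a1, at 0.745, had 2 and 1 in its windows. A relation of matches to level was not tested. Of all 32851 promoter windows of this length, 28.3% held it, so a match is common.

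The resident markers did not stand at 1 level. Folr2, Maf and Mrc1 lay above both monocyte markers, and F13a1, Timd4, Cd163 and Lyve1 lay below both. The order of mean levels per kilobase, over all 6 libraries, was Folr2 at 176 CPM per kilobase (SD 17.1, n = 6), Maf at 21.8 (SD 1.43), Mrc1 at 17.5 (SD 1.56), Ccr2 at 2.47 (SD 0.221), Ly6c2 at 2.01 (SD 0.278), Cx3cr1 at 0.973 (SD 0.176), F13a1 at 0.745 (SD 0.146), Timd4 at 0.497 (SD 0.196), Cd163 at 0.0805 (SD 0.0538) and Lyve1 at 0.0473 (SD 0.0306). Neighbours in this order whose ranges over the libraries overlapped were Ccr2 and Ly6c2, Cx3cr1 and F13a1, F13a1 and Timd4, and Cd163 and Lyve1. The ranges of the other neighbours did not overlap.

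**Figure D1:**
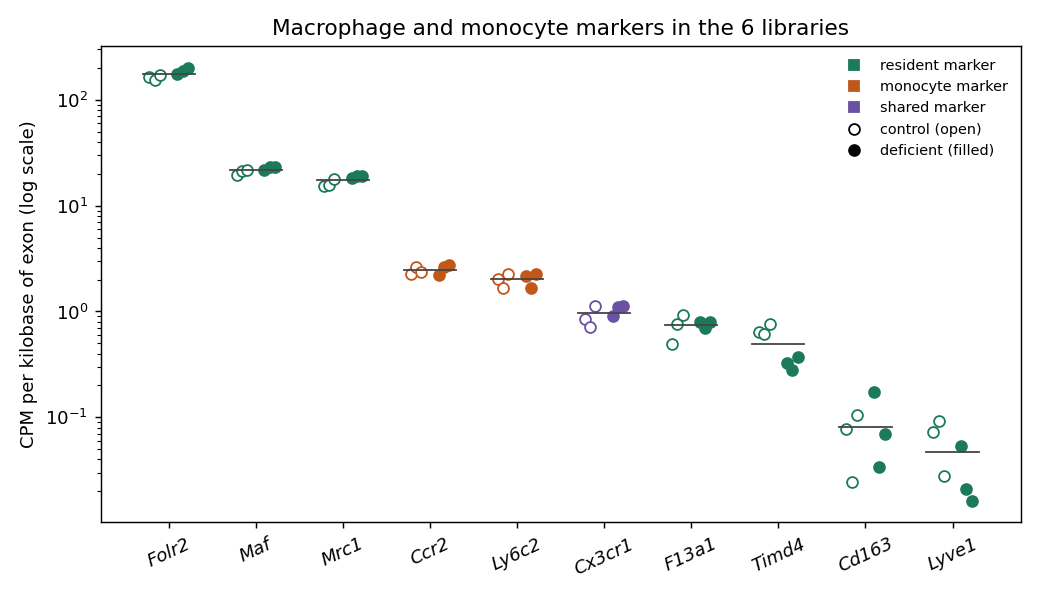
Level of each of the 10 markers in CPM per kilobase of exon (log axis), with open points for the 3 control and filled points for the 3 deficient libraries, and a line at the mean of the 6. Folr2, Maf and Mrc1 lie above the monocyte markers Ccr2 and Ly6c2, and the other 4 resident markers lie below them.

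Folr2, the folate receptor beta of resident macrophages (chr7:101839988-101857194), was the most abundant marker. Its CPM was 255, 238 and 263 in the control libraries and 275, 290 and 312 in the deficient libraries. Every deficient library was above every control, by a log2 fold change of 0.21 (SE 0.066, adjusted p = 0.0917, edgeR), which is under the fold limit of 0.58. The adjusted p rose above 0.1 under 8 of 14 alternatives, among them the fits that lacked control replicate 1 (0.257) or 2 (0.270), or deficient replicate 2 (0.175) or 3 (0.322). It was at most 0.1 under the other 6, among them DESeq2 (0.0321) and the edgeR fit with a replicate block (0.0106). An antisense gene, Gm10602, shares 975 exonic bases with Folr2 and had 13 to 33 counts a library, against 1777 to 6578 for Folr2. The strand setting of the counting was not given in the sources used here. Folr1, its relative, had 5 to 8 counts.

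Maf, a basic leucine zipper factor of macrophage identity also used in lens and other tissues (chr8:115682942-115707794), had CPM of 160, 174 and 181 in the controls and 178, 191 and 193 in the deficient libraries. The groups overlapped, and the log2 fold change was 0.12 (SE 0.064, adjusted p = 0.240, edgeR). Mrc1 (chr2:14229392-14332057) had CPM of 98.8, 99.7 and 114 in the controls and 117, 120 and 120 in the deficient libraries. The deficient libraries of Mrc1 were all above the controls, with a log2 fold change of 0.19 (SE 0.067, adjusted p = 0.103, edgeR). The adjusted p of Mrc1 was at most 0.1 under 5 of 14 alternatives, which were DESeq2 (0.0948), no filter on low counts (0.05004), the length correction (0.0800), the replicate block, and the fit that lacked control replicate 3 (0.0175). Mrc1 hosts the microRNA gene Mir511 in the same orientation.

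F13a1, the coagulation factor XIII A chain that macrophages and platelets both carry (chr13:36867178-37050244), had CPM of 3.30, 5.08 and 6.24 in the controls and 5.40, 4.70 and 5.41 in the deficient libraries. Control replicate 1 was the lowest library and control replicate 3 the highest, and the log2 fold change was 0.08 (SE 0.25, adjusted p = 0.873, edgeR). Timd4 (chr11:46810800-46844332) had 13, 10 and 20 counts in the controls and 9, 10 and 17 in the deeper deficient libraries. These are 1.38, 1.34 and 1.64 CPM against 0.705, 0.611 and 0.807 CPM, so every deficient library was below every control. The log2 fold change of Timd4 was −1.03 (SE 0.39, adjusted p = 0.123, edgeR), which misses the threshold, and its mean is below the 2 CPM a call needs. It met the filter on low counts through its control level. Of all tested genes, 16.4% had every deficient library below every control.

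Cd163 (chr6:124304656-124330527) and Lyve1, the hyaluronan receptor shared by lymphatic endothelium and resident macrophages (chr7:110850607-110863239), were too low to be tested. Cd163 had 4, 1 and 7 counts in the controls and 12, 3 and 8 in the deficient libraries. Lyve1 had 2, 2 and 1 counts and 2, 1 and 1 counts. At these counts a difference between the groups was not detectable for either gene.

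Ccr2 (chr9:124101950-124113557) had CPM of 15.4, 17.7 and 15.8 in the controls and 15.0, 17.7 and 18.7 in the deficient libraries. Its groups overlapped, and its log2 fold change was 0.08 (SE 0.12, adjusted p = 0.717, edgeR), with an interval of 2 standard errors from −0.16 to 0.32. Ly6c2 (chr15:75108158-75111970) had CPM of 5.53, 4.55 and 6.16 against 5.95, 4.58 and 6.22, with a log2 fold change of 0.04 (SE 0.21, adjusted p = 0.934, edgeR). Both monocyte markers were thus detected in every library, without a group difference beyond the spread. Cx3cr1, the fractalkine receptor of microglia and of patrolling monocytes (chr9:119901616-120069879), had CPM of 3.83, 3.21 and 5.09 against 4.07, 5.01 and 5.08, and its log2 fold change was 0.21 (SE 0.24, adjusted p = 0.606, edgeR).

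Of the 10 markers, 8 passed the filter on low counts (5 resident, 2 monocyte and Cx3cr1) and 0 were called, against 4.94% of the 13961 genes tested. Called here means that a gene met 3 limits, which were 0.1 for the adjusted p (Benjamini-Hochberg), 0.58 for the size of the log2 fold change and 2 for the mean CPM. By edgeR, 3 of the 8 had an unadjusted p under 0.05, against 27.3% of all genes tested, and DESeq2 and limma-voom also called 0. At the adjusted p of at most 0.1 alone, Folr2 was the 1 marker higher in the deficient libraries, against 4.18% of all genes, and 2 markers, Folr2 and Mrc1, had all deficient libraries above the controls, against 15.0%. The median log2 fold change of the 8 lay above 0, with 7 positive, while that of all tested genes was −0.02. Of the 20 pan-macrophage genes, all had a positive log2 fold change, from 0.05 to 0.25 with a median of 0.19, and 0 were called. Every deficient library was above every control for 11 of the 20, against the same 15.0%. At the adjusted p of at most 0.1 alone, 3 of the 20 were higher, against the same 4.18%. That count was 0 without control replicate 1 and 19 without control replicate 3. With the libraries scaled to the pan-macrophage genes, the median of all tested genes moved to −0.20 and F13a1, Maf, Ccr2 and Ly6c2 turned negative.

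**Figure D2:**
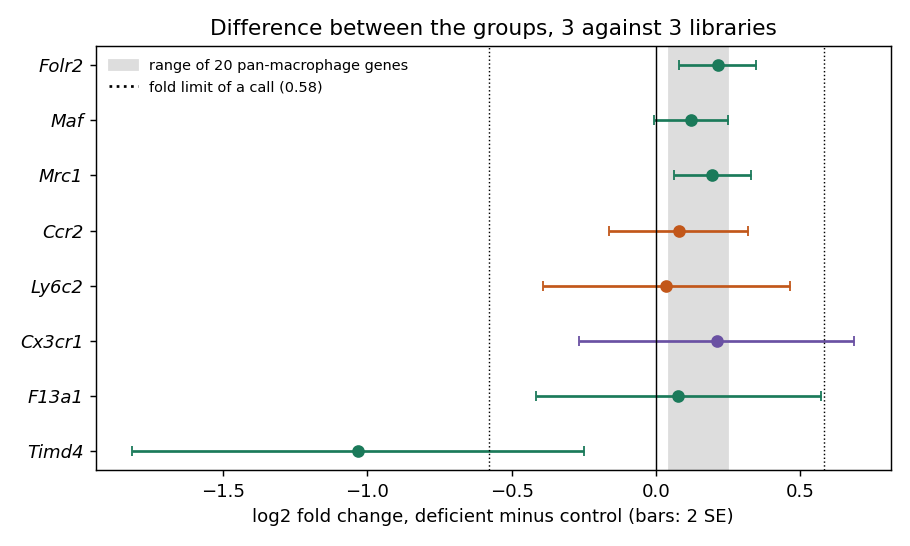
Log2 fold change of the 8 tested markers, deficient minus control, with bars of 2 standard errors, a grey band for the range of the 20 pan-macrophage genes (0.05 to 0.25) and dotted lines at the fold limit of 0.58. Timd4, at −1.03, lies below the band, while its adjusted p was 0.123 (edgeR).

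The 7 summed resident markers exceeded the 2 summed monocyte markers in each library. The ratio per kilobase was 46.8, 44.9 and 46.2 in the controls and 49.9, 53.7 and 48.8 in the deficient libraries, that is 46.0 ± 0.924 (SD, n = 3) and 50.8 ± 2.55 (SD, n = 3). Folr2, Maf and Mrc1 made up 99.1% to 99.6% of the resident sum. Without Folr2 the mean ratio over the 6 libraries was 9.09, and without all 3 it was 0.307, so the side that leads depends on which resident markers are summed. These left-out sums were chosen after the values were seen.

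Set against the summed pan-macrophage genes of each library, Folr2 and Mrc1 kept a near-constant share, and the scarcer markers varied more. Counts of Folr2 per 10000 pan-macrophage counts were 129, 127 and 122 in the controls and 126, 127 and 131 in the deficient libraries, a coefficient of variation (CV) of 2.40% where counting error alone gives 1.79%. For Mrc1 they were 49.9, 53.3 and 52.6 against 53.5, 52.7 and 50.5, a CV of 2.89% where counting error gives 2.81%. Maf lay between 80.8 and 83.7 in 5 libraries and at 93.1 in control replicate 2.

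Ccr2 was also highest in control replicate 2, at 9.45 against 6.85 to 7.83 elsewhere, and its CV was 11.2% with 7.29% from counting. Control replicate 2 also had the highest share of most neural crest markers, such as Sox10 at 4.15 against 0.375 to 2.20 elsewhere, and their part in the Maf and Ccr2 values was not tested. Ly6c2 and Cx3cr1 varied by 12.2% and 11.6%, below the 12.7% and 14.0% of counting error. F13a1 ran from 1.67 to 2.89 per 10000, with a CV of 19.1% where counting error gives 13.3%. The CV was 65.9% for Cd163 and 72.6% for Lyve1, both at no more than 12 counts a library. Timd4 had 0.699, 0.716 and 0.760 per 10000 in the controls and 0.323, 0.268 and 0.339 in the deficient libraries, without overlap. A steady share was common among abundant genes. Over the 1377 genes outside the pan-macrophage list with a mean of at least 100 CPM, the median CV was 3.11%, and 33.7% of them varied less than Folr2, 45.3% less than Mrc1 and 77.2% less than Maf.

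**Figure D3:**
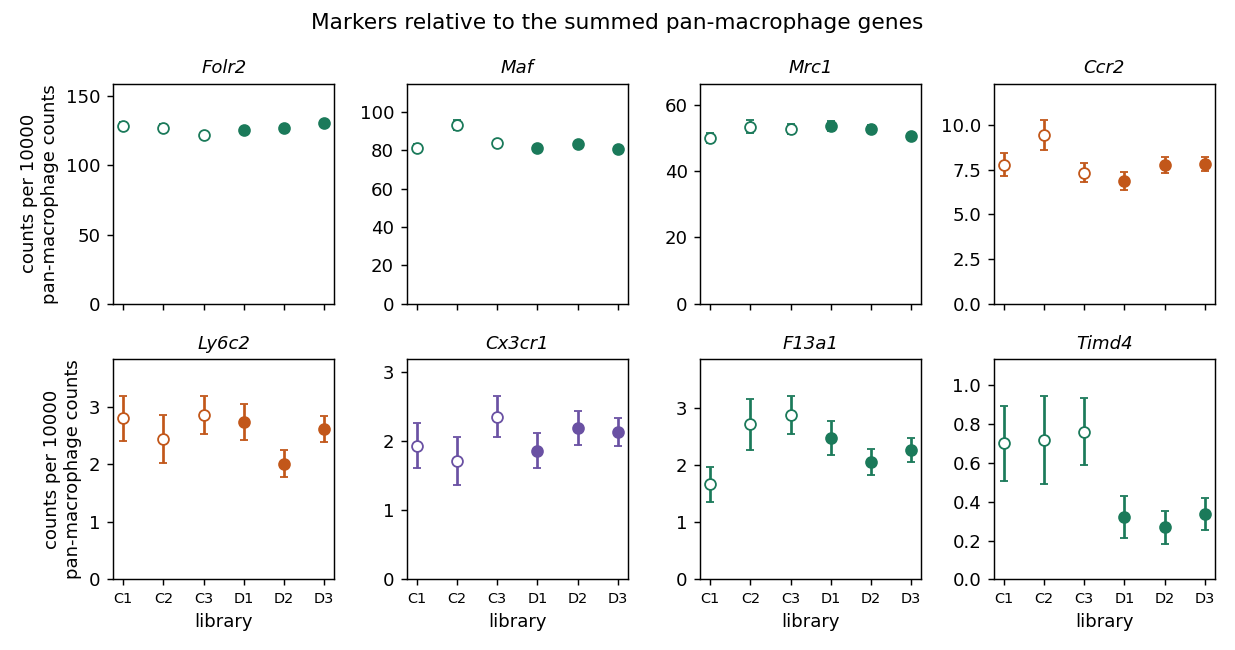
Counts of each tested marker per 10000 summed pan-macrophage counts in control (C1 to C3, open) and deficient (D1 to D3, filled) libraries, with bars of counting error (1 standard error of the count). Folr2 and Mrc1 are level over the 6 libraries, Maf and Ccr2 are highest in C2, and Timd4 is lower in each deficient library.

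**Figure D4:**
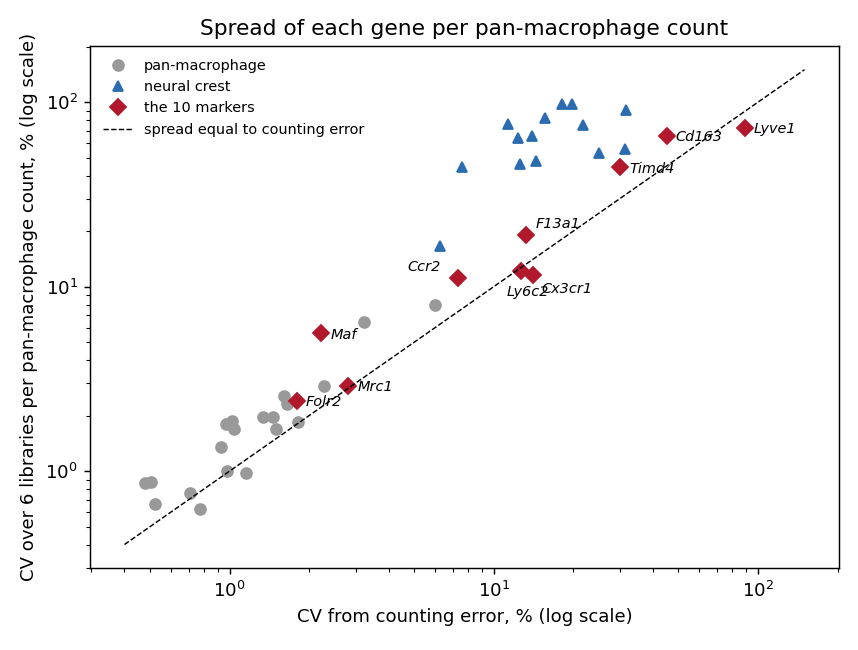
CV of each gene's count per pan-macrophage count over the 6 libraries against the CV that counting error gives, both in percent on log axes, for the 10 markers, the 20 pan-macrophage genes and the 14 neural crest markers. Folr2 and Mrc1 lie near the dashed line of equal values, and the neural crest markers lie above it.

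Other genes of the resident program were split in the same manner. Of the 16 listed, 12 were tested and 0 called. Cd5l, a secreted survival factor of tissue macrophages, stood at 110 CPM per kilobase, the chemokine Pf4 at 67.2 and the nuclear receptor Nr1h3 at 30.0, whereas Cd209f and Cd209g had no count in any library. The 19 other monocyte genes, 18 tested and 0 called, were led by the coagulation factor F10 at 130 CPM per kilobase, the integrin Itgal at 60.3 and the matrix protein Thbs1 at 35.4. Others of the 19 were low, such as Ace (0.165), Treml4 (0.225) and Spn (0.607), and 2 had a mean under 2 CPM. Both lists thus held high and low genes. Their sums did not repeat the lead of the resident markers. The other resident genes summed to 241 to 278 CPM per kilobase in the controls and 283 to 301 in the deficient libraries. The other monocyte genes summed to 289 to 324 in the controls and 318 to 345 in the deficient libraries, so the monocyte list was higher in both groups.

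Of the 12 microglia genes, 10 were tested and 0 called. Trem2 (71.0 CPM per kilobase) and Fcrls (24.5) were among the highest, and other macrophages carry Trem2 too. Others of the 12 were low, such as P2ry12 (0.815), Sall1 (0.732), Tmem119 (0.488) and Siglech (0.0158), and 3 had a mean under 2 CPM. Of the 8 ligands of macrophage and monocyte receptors, Ccl7 (515), Ccl2 (361) and Ccl12 (230 CPM per kilobase) were highest. Cx3cl1, the ligand of Cx3cr1, was low at 0.432, as were Il34 (0.318) and Csf2 (0.310). A mean under 2 CPM was found for 3 of the 8, and 0 of the 6 tested were called. Among 12 myeloid transcription factors Irf8 (294), Spi1 (244) and Cebpb (234) led, and 0 were called. In the Maf family, Maf at 21.8 lay just below Mafk at 23.3 CPM per kilobase, and 0 of 5 tested were called.

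Lists of other cell types were read for what else could carry these markers. Lyve1 is shared with lymphatic endothelium, where Pdpn (171 CPM per kilobase) and Kdr (20.4) were high but Pecam1 stood at 0.898. Of the 13 endothelial and lymphatic genes, 9 had a mean under 2 CPM. Of the 9 tested, only Prox1 was called, with a log2 fold change of −1.40 in the deficient libraries (adjusted p = 0.0660, edgeR). The log2 fold change was positive for 7 of these 9, with a median of 0.16. F13a1 is shared with platelets. The markers listed for them were low, led by Ppbp at 2.01, Vwf at 0.751 and Itga2b at 0.539 CPM per kilobase, with 0 of 3 tested called. Pf4 (platelet factor 4), which was listed with the resident genes and not here, stood at 67.2. Among neutrophil genes Csf3r (85.2), S100a8 (15.9) and S100a9 (13.7) led and 0 of 4 were called. The other end of that list was near 0, with 7 of its 11 genes under a mean of 2 CPM, among them the granule genes Elane (0.0644) and Mpo (0.0387). Dendritic genes were led by Cd74 (880), H2-Ab1 (177) and H2-Aa (99.6), which present antigen in macrophages as well, with 0 of 9 called. Some genes of this list were low, with Clec9a at 1.11, Xcr1 at 0.990, Zbtb46 at 0.340 and Flt3 at 0.0602 CPM per kilobase. Itgax and Ccr7 of the same list were higher. Per 10000 pan-macrophage counts they had 31.6 and 21.6, where Xcr1 had 2.05 and Clec9a 1.71.

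Mast cell genes were led by Kit (0.379), Cpa3 (0.376) and Fcer1a (0.168), and Kit was called lower at −0.98 (adjusted p = 0.0777, edgeR). Erythroid genes were led by Hbb-y (12.8), Hba-x (6.09) and Hba-a1 (5.23), with 0 of 5 called. Of the lymphoid genes Il7r stood at 48.4, while Cd79a (0.201) and Cd8a (0.0621) were near 0 and 0 of 1 tested were called. In the neural crest list 7 of the 13 tested were called, all lower, namely Sox10, Tfap2a, Tfap2b, Twist1, Prrx1, Sox9 and Ngfr, with a median log2 fold change over the 13 of −1.18. Of all genes tested, 4.88% were called lower (681 of the 689 called). Ednrb (5.47), Twist1 (4.22) and Prrx1 (1.60) had the highest levels per kilobase there. The part of this fall in the values of the macrophage markers was not tested.

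The genes whose log2 CPM followed Folr2 most closely over the 6 libraries were Col4a3bp (Pearson's r = 0.997), Prkcd (0.997) and Capza2 (0.996). For Ccr2 they were Card9 (0.992), Mrpl20 (0.989) and the pseudogene Gm5525 (0.983). These values are descriptions over 6 libraries that share depth and normalisation.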

How the data were processed

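RNAseq of GFP+ NCCs was read in 3 control and 3 deficient libraries. The authors trimmed adapters (cutadapt 1.18, per the submitters' processing notes), aligned the paired-end, strand-specific reads with STAR (build GRCm38) and deposited whole-number counts per gene from featureCounts, without normalization. The annotation release, strand setting and handling of multimapped reads are not given in the sources used here. Of 46983 genes, 46488 were named by GENCODE M21, and the other 495 held at most 0.0706% of the counts.

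Differential expression was tested with edgeR 4.0.16 under R 4.3.3 (filterByExpr, minimum count 10 and total 15, TMM, robust quasi-likelihood F test, group as the only term, Benjamini-Hochberg over 13961 genes, prior count 2). Standard errors come from the F statistic. The biological coefficient of variation was 12.8%. On simulated data all of 200 genes with a log2 fold change of 2 were recovered (100%), with 9 false calls. The 8 markers tested all changed by less than 2, so this recovery does not measure power at their changes. Exon lengths are the union of GENCODE M21 exons. Each deposited library comes from embryos of its group, and p-values measure the spread between these samples. Counting errors cover counting only. DESeq2 1.42.0, limma-voom (limma 3.58.1), other filters, scalings and thresholds, a replicate block and each library left out were alternatives. The markers and lists were chosen with earlier results of these data known. Named were all 10 markers, the 3 genes of each list highest per kilobase, those called, those at 0 in all libraries, and the 3 genes most correlated with Folr2 and with Ccr2. A few genes that this rule names are not reported here. Any other named gene was chosen after its values were seen. Promoter windows are from RefSeq. Figures were made in Python 3.11.15.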

Additional observations from a re-analysis of the deposited data

How the results depend on the processing

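No marker was called in any alternative, except that dropping the fold and CPM limits (adjusted p of at most 0.1 alone) gave 1 of 8, Folr2. The number of genes called over the whole table, 689 by edgeR, was 1665 at the adjusted p alone, 94 at an adjusted p of at most 0.05 with the limits, and 0 to 1245 when 1 library was left out. The 0 came without control replicate 1, where edgeR gave 2547 genes at an unadjusted p under 0.05, and the fits lacking control replicate 2 or 3 gave 61 and 1245, while those lacking deficient replicate 1, 2 or 3 gave 1037, 264 and 17. The causes were not tested. A replicate block in edgeR gave 1164 genes, with adjusted p of 0.0106 for Folr2, 0.0282 for Mrc1 and 0.0896 for Maf. The same-numbered libraries correlated by 0.03, −0.03 and 0.29 in their deviations, so the numbers were not taken to pair the samples.

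Scaling to the pan-macrophage genes turned the median of the tested markers to −0.075, F13a1 to −0.091, Maf to −0.060, Ccr2 to −0.11 and Ly6c2 to −0.13 on the log2 scale. With 1 library left out, F13a1 ran from −0.14 to 0.32 and Ly6c2 from −0.065 to 0.16. Timd4 was not tested under the filter at a mean of 2 CPM. The mean ratio of resident to monocyte markers, 48.4 per kilobase, was 25.7 on CPM, 43.5 without Lyve1 and Maf, 39.7 with Cx3cr1 on the monocyte side, 9.09 without Folr2 and 0.307 without Folr2, Maf and Mrc1. Depth limits Cd163 and Lyve1, at most 12 counts a library, and Timd4, at most 20.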
